A study of Mus musculus with 19 samples.

Results

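Capture Hi-C maps of the Shh locus from midbrain of E10.5 mouse embryos were compared between the allele labelled delta-CTCF i4i5ZRS and wild type. The comparison takes in 4 of the 19 samples of the series, 2 for each genotype, chosen by the tissue and genotype in their labels. Capture Hi-C counts how often DNA fragments of an enriched region were ligated to each other after cross-linking, which reports how often they lay close together in the nucleus. The wild type samples carry the strain label C57BL/6 and, per the series design, are biological replicates. The delta-CTCF i4i5ZRS samples carry the label G4, an embryonic stem cell line, and are technical replicates. Each genotype was deposited as 1 merged map, so the spread between replicates is not known and no test was made. All intervals below are 95% counting intervals of the contacts behind a value, and they cover counting error only. Strain label and genotype cannot be told apart within midbrain. Each map averages over all cells of the tissue, so a contact in fewer cells and a weaker contact in every cell cannot be told apart either. The labels give neither the coordinates of the deleted CTCF sites nor the number of mutant clones. The dissection they describe is that of limbs, and a contact map holds no expression values against which the midbrain label could be checked.

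Shh encodes Sonic hedgehog, a secreted signal that patterns the limb, the floor plate and the ventral midbrain. Its limb expression depends on the ZRS, an enhancer in an intron of Lmbr1 at the far end of a long gene desert, while midbrain expression depends on other enhancers closer to the gene. CTCF is a DNA-binding protein that halts loop-extruding cohesin, so that convergent CTCF sites can anchor a loop and mark the borders of a contact domain. In the mouse gene order the neighbours of Shh on the side with lower coordinates are Rbm33, which encodes an RNA-binding protein, Cnpy1, En2, which encodes a homeobox factor of the midbrain and hindbrain, and Insig1, a regulator of sterol synthesis. On the side with higher coordinates Shh is followed by Rnf32, Lmbr1, Nom1, Mnx1, which encodes a homeobox factor of motor neurons, Ube3c, a ubiquitin ligase gene, and Dnajb6, a co-chaperone gene. The gene table at hand is of another genome build than the maps, so only this order is used and these neighbours are placed in no bin. The Shh promoter bins are those that overlap the viewpoint named in the labels, and the ZRS window was set from general knowledge of its distance from Shh.

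The maps cover chr5:27800001-30600000 (mm9) in 280 bins of 10 kb, or 39340 possible bin pairs. The wild type midbrain map held 2201297 contacts and the mutant map 2144694, with a median of 15 and 14 contacts per bin pair. Positions are given in kb from the main Shh promoter bin, chr5:28790001-28800000, with higher coordinates positive. The contact values below are observed over expected, the signal of a bin pair divided by that map's mean over all pairs equally far apart. A value of 1 is therefore the map average at that separation, and where some pairs are higher by this measure others at the same separation must be lower. The Shh domain reaches from -20 to 900 kb between border bins at -30 and 910 kb. It was divided into the promoter end (-20 to 90 kb), the near desert (100 to 420 kb), the far desert (430 to 750 kb) and the ZRS end (760 to 900 kb). Below it lie the lower flank (-530 to -40 kb), on the En2 and Rbm33 side, and the lower outer segment (-990 to -540 kb). Above it lie the upper flank, the 50 bins from 920 kb (chr5:29710001-30210000), on the Nom1 and Mnx1 side, and the upper outer segment, the 39 bins from there to 1800 kb.

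The mutant midbrain map differed from wild type in 3 main places: contact of the domain with sequence above its upper border was higher, contact of the ZRS end with Shh was lower, and contact of the ZRS end with the flank beyond Shh was lower. After averaging over squares of 5 by 5 bins, 1090 of 35511 bin pairs at 100 kb or more were higher by a log2 ratio of 0.5 or more, which is 3.07% of all pairs, and 624 were lower by as much, which is 1.76%. With each map scaled by its total signal only, these counts became 657 higher and 856 lower, and with the deposited signal unscaled 477 and 1086, so the balance of higher and lower pairs depends on the scaling. The places where pairs differed were uneven. Pairs that join the domain to bins above the upper border made up 22.7% of all pairs and held 837 of the higher pairs (76.8%) and 2 of the lower ones. Pairs that join the domain to bins below the lower border made up 24.5% of all pairs and held 369 of the lower pairs (59.1%) and 2 of the higher ones. A log2 ratio of 1 or more was reached by 2 pairs (0.00563%) upward and by none downward. The SD of the log2 ratio over all smoothed pairs was 0.24. In limb maps of 2 other alleles with the strain label G4, one labelled ZRSreg and the other with the Lmbr1 promoter deleted, it was 0.15 against wild type limb, and 0.335% and 0.304% of pairs were higher past the same fold, with 0.335% and 0.118% lower. These 2 maps were deeper than the midbrain maps, at 2544793 and 3022706 contacts, and the wild type limb map held 2862106. The part of depth in these shares was not tested.

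**Figure D1:**
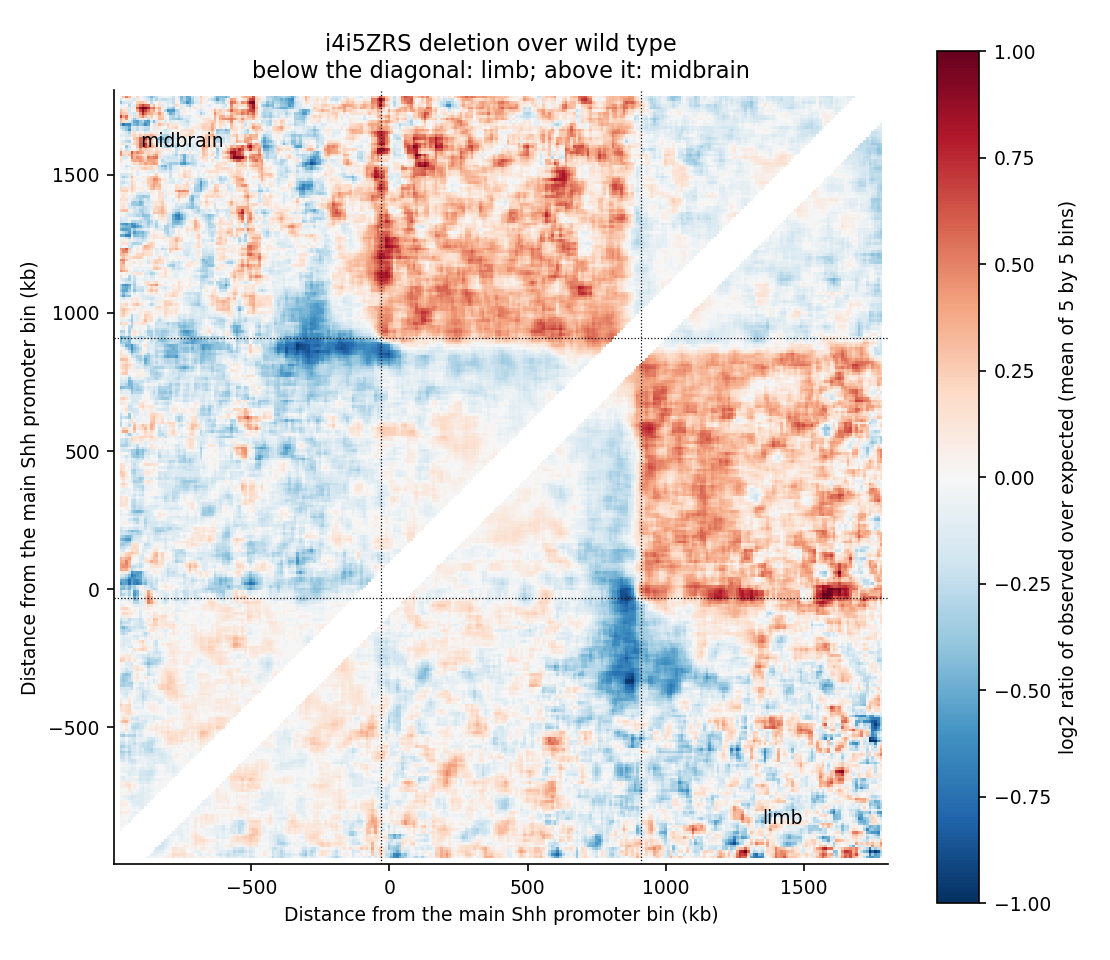
Log2 ratio of observed over expected contact, i4i5ZRS over wild type, for each smoothed bin pair, with both axes in kb from the Shh promoter, midbrain above the diagonal and limb below it, and dashed lines at the domain borders. Pairs that join the domain to bins above 910 kb are mostly higher, and a band that joins bins near 850 kb to bins from -530 to 0 kb is lower.

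The ZRS end of wild type midbrain had more contact with the lower flank than the map average at those separations, and in the mutant this contact was lower. Mean observed over expected contact of the lower flank with the ZRS end was 1.72 in wild type and 1.26 in the mutant, from 20157 and 13484 contacts. The log2 ratio was -0.45 (95% counting interval -0.49 to -0.42), the lowest of the 36 pairs of segments, which ranged up to 0.43. Of the 750 bin pairs in this block 18.8% were higher in the mutant, against 50.2% of all 37950 bin pairs at 50 kb or more. After smoothing, 291 of the 750 pairs (38.8%) were lower past the fold, against 1.76% of all pairs, and none was higher. The contact of the ZRS end with the lower outer segment, still farther from the ZRS, was 1.27 in wild type and 1.10 in the mutant, a log2 ratio of -0.21.

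Each of the 15 bins of the ZRS end had less contact with the lower flank in the mutant, with an interval below 0 for all 15 and a median log2 ratio of -0.42. The lowest bin was at 880 kb, with 1.87 in wild type and 1.10 in the mutant, a log2 ratio of -0.76, followed by 870 kb at -0.73. Among the 5 lowest bins for contact with the lower flank, the bin at 40 kb was the only one outside the ZRS end, with 0.505 in wild type and 0.301 in the mutant (log2 ratio -0.75, and -0.30 in limb). The recovered contacts of the ZRS end, before balancing, had a mean log2 ratio of -0.018 per bin over the 15 bins. The range was from -0.13 to 0.11. These ratios are scaled by a constant common to all bins. With equal contacts in both maps, as at -20 kb with 4145 each, the scaled ratio is 0.051.

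Seen from the ZRS window itself, the 5 bins from 830 to 870 kb (chr5:29620001-29670000), the lower contact reached from Shh across the whole lower flank. Contact of the window with the lower flank was 1.96 in wild type and 1.36 in the mutant, a change of -30.7%, at a log2 ratio of -0.53 (-0.59 to -0.47), and 47 of the 50 flank bins were lower. A profile of the window over the map had 183 bins at 100 kb or more with at least 50 contacts in both maps. This profile was added after values had been seen. In it 34 bins were lower past a log2 ratio of 0.5 (18.6%) and 5 were higher (2.73%). All 38 lower flank bins that could be compared were lower, 26 of them past that fold, with a median of -0.60. The 11 compared bins of the promoter end were all lower, 5 past the fold. Inside the desert the difference was smaller. Contact of the window with the near desert was 1.92 in wild type and 1.71 in the mutant, a log2 ratio of -0.17 (-0.22 to -0.11), and 28 of the 32 compared bins were lower, 6 with an interval below 0. With the far desert it was 1.18 and 1.16 (-0.030, interval -0.081 to 0.021). None of these bins passed the fold in either desert segment.

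In wild type midbrain the ZRS profile had its highest value, among bins at 100 kb or more, next to the lower border. The ZRS window had an observed over expected contact of 8.17 with the bin at -20 kb, 7.61 with the bin at -10 kb and 5.61 with the main promoter bin. The mutant had 3.66, 3.60 and 3.64 at those bins, so the excess at -20 and -10 kb over the main promoter bin was no longer seen. Farther into the lower flank the wild type values were 4.72 at -40 kb, 3.15 at -100 kb and 2.05 at -160 kb, and the mutant values 3.55, 1.88 and 1.04. At -280 kb contact was 1.52 in wild type and 0.789 in the mutant. The wild type window was above the map average at all 4 of these bins, and the mutant was below it at -280 kb. The bins at -160 and -280 kb are among the 5 lowest log2 ratios of this profile. The mutant value at -160 kb rests on 75 contacts, and the mutant had 1.35 at -150 kb. These single bins therefore do not give the distance at which mutant contact falls to the map average.

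**Figure D2:**
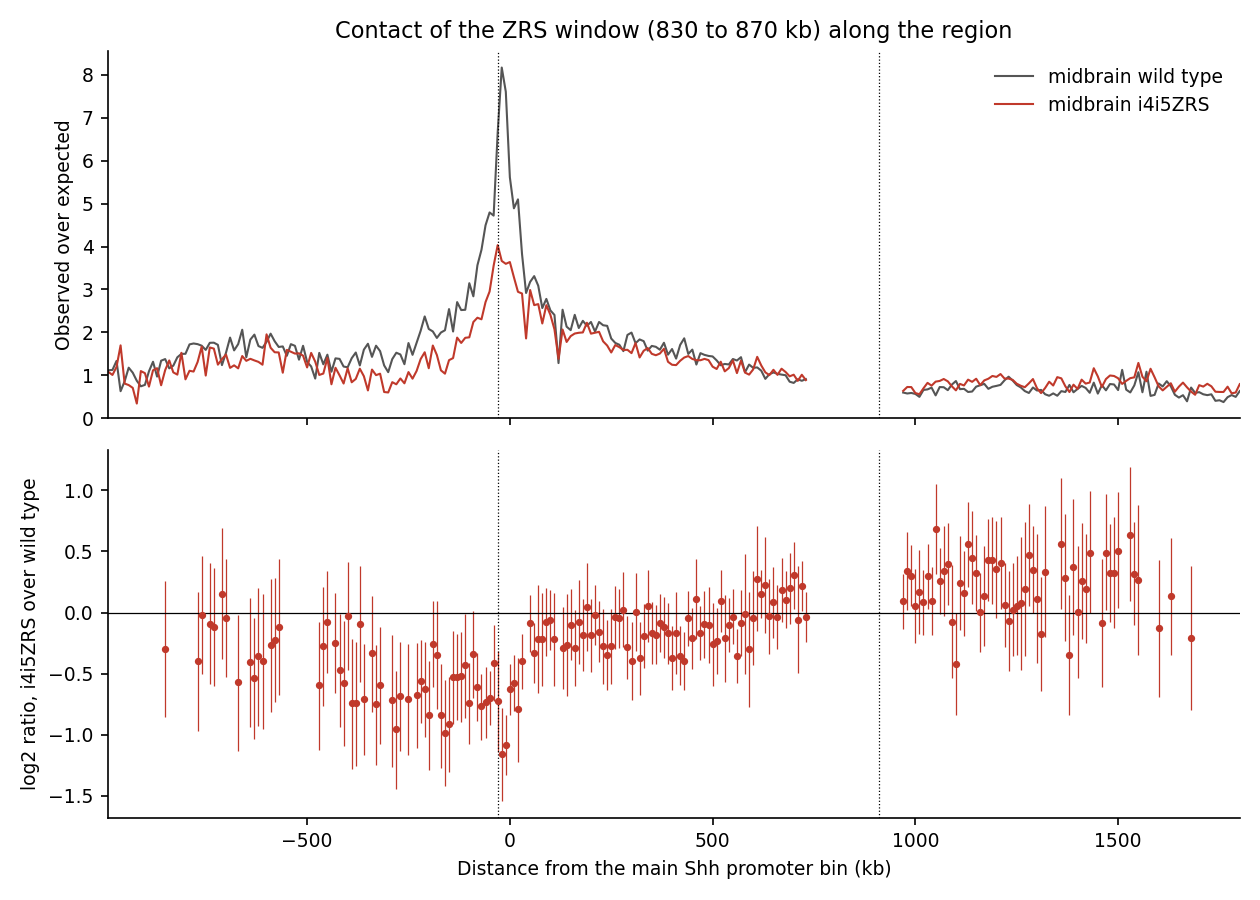
Contact of the ZRS window with every bin of the map, with kb from the Shh promoter on the x axis, observed over expected of both midbrain maps above and the log2 ratio i4i5ZRS over wild type with 95% counting intervals below. The wild type line peaks at 8.17 at -20 kb where the mutant line is at 3.66, and the log2 ratio is below 0 at all compared bins from -530 to 90 kb.

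Shh itself had fewer contacts with the ZRS end and more beyond it. The shares below are of recovered promoter contacts, before balancing, with Wilson score intervals. The ZRS end received 13.7% in wild type (13.2% to 14.1%) and 10.2% in the mutant (9.86% to 10.6%). The upper flank received 10.8% (10.46% to 11.2%) in wild type and 15.3% (14.9% to 15.8%) in the mutant. The near desert, which lies next to the gene, received 20.6% and 20.7%, and these intervals overlap. The share of the lower flank was 18.2% (17.7% to 18.6%) in wild type and 16.2% (15.8% to 16.7%) in the mutant. The promoter therefore had a smaller share of its contacts on the Rbm33 side and at the ZRS end, and a larger share on the Nom1 side.

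Of 127 bins on the promoter profile with at least 50 contacts in both maps, 10 were higher past a log2 ratio of 0.5 (7.87%) and 6 were lower (4.72%). The 5 lowest were at 860, 870, 830, 820 and 840 kb. The lowest, at 860 kb, had an observed over expected contact of 6.26 in wild type and 2.98 in the mutant, from 236 and 101 contacts, a log2 ratio of -1.07 (-1.43 to -0.72). The 5 highest were at 910, 920, 990, 1040 and 950 kb. Their log2 ratios ran from 0.63 to 1.08, and the bin at 910 kb, the upper border, had 3.37 in wild type and 7.15 in the mutant from 71 and 155 contacts. The change from lower to higher thus fell between 870 and 910 kb, within 40 kb. All 20 compared bins of the upper flank were higher, 8 past the fold. Mean promoter contact with the upper flank was 1.78 in wild type and 2.52 in the mutant (log2 ratio 0.50, interval 0.42 to 0.57), with 44 of 50 flank bins higher.

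Inside the desert, where enhancers for Shh in tissues other than limb are known to lie, the promoter's mean contact with each desert segment differed by less than counting error. Its contact with the near desert was 1.16 in wild type and 1.20 in the mutant, a log2 ratio of 0.046 (-0.014 to 0.11). With the far desert it was 2.65 and 2.76, a log2 ratio of 0.062 (-0.0071 to 0.13). Single compared bins went both ways: 2 of 32 near desert bins had an interval above 0, and 3 of 29 far desert bins were above and 2 below, with log2 ratios from -0.44 to 0.51 over both segments. Over the ZRS end as a whole promoter contact was 6.15 and 4.69, a log2 ratio of -0.39 (-0.47 to -0.31).

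**Figure D3:**
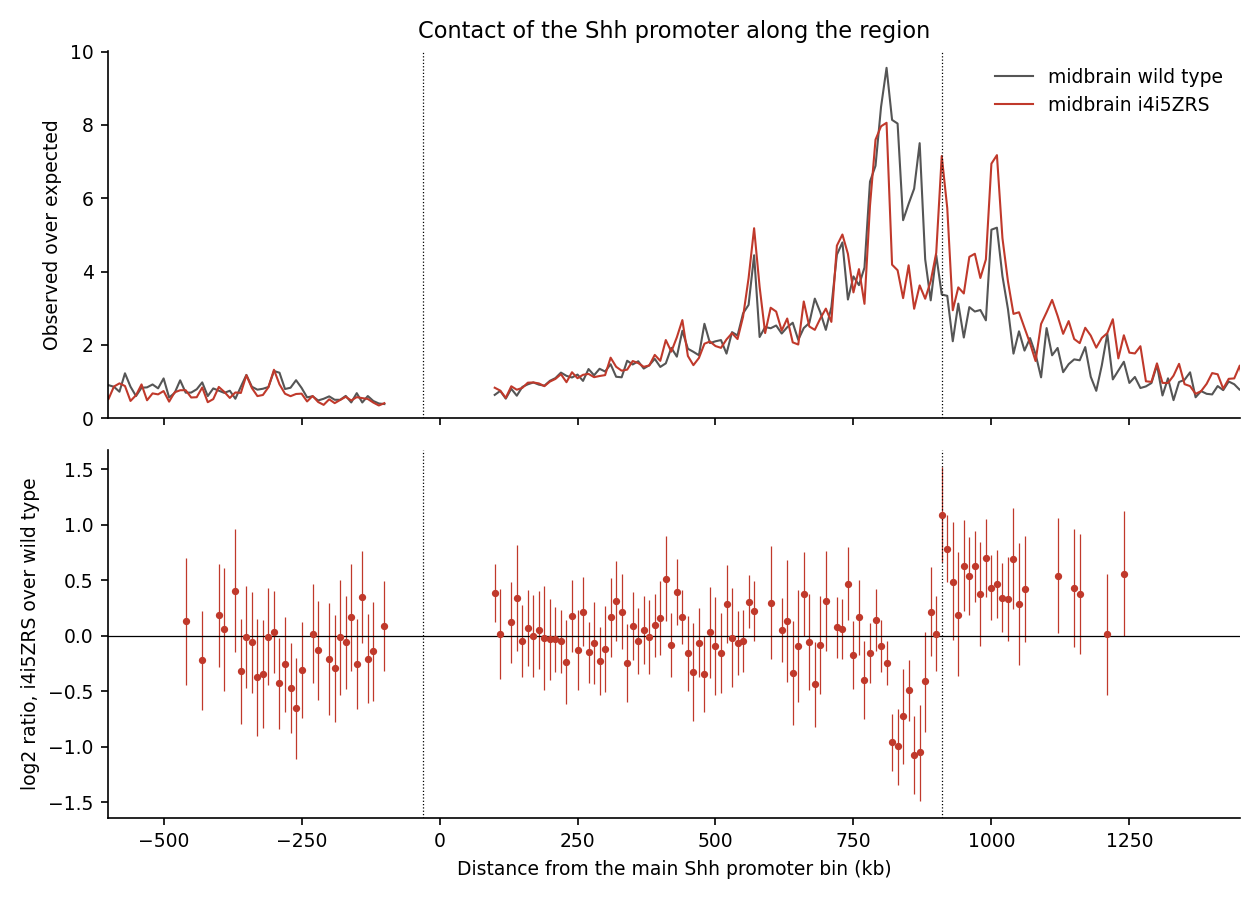
Contact of the Shh promoter with every bin of the map, with kb from the promoter on the x axis, observed over expected of both midbrain maps above and the log2 ratio i4i5ZRS over wild type with 95% counting intervals below. The mutant line lies below wild type from 820 to 870 kb and above it at 910 kb and in 44 of the 50 upper flank bins.

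Insulation was weaker in the mutant over the ZRS end, and less so at the upper border bin itself. For insulation, the signal was averaged over the 10 by 10 bins that join the 10 bins before a bin to the 10 after it, and is given as a log2 ratio to the average of these squares along the map, so low values mark borders. Across the 260 bins with a full square the difference between mutant and wild type had an SD of 0.079. It was above 0.2 in 10 bins, which were the 10 consecutive bins from 810 to 900 kb, and above 0 in all 16 bins from 760 to 910 kb. The largest difference was at 860 kb, where insulation was -0.66 in wild type and -0.29 in the mutant, a difference of 0.37 (0.32 to 0.43). Outside the ZRS end and its border the highest difference was 0.084, at -570 kb. In wild type the bins from 870 to 910 kb lay at nearly one level, from -0.71 to -0.68, and the order among them is within counting error. The mutant went from -0.33 at 870 kb to a local minimum of -0.56 at 910 kb, the upper border bin. At this bin the difference was 0.12 (0.070 to 0.17). It was 0.029 with squares of 5 by 5 bins and 0.21 with 20 by 20.

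Contact across this border was higher for every segment of the domain. Every one of the 50 upper flank bins and every one of the 39 upper outer bins had more contact with the domain in the mutant, with the interval above 0 for 50 and for 27 of them. The highest ratio was in the bin just past the border, at 920 kb, with 0.900 in wild type and 1.31 in the mutant, a log2 ratio of 0.54. By segment, log2 ratios with the upper flank were 0.43 for the promoter end, 0.33 for the near desert, 0.34 for the far desert and 0.19 for the ZRS end. The promoter end already contacted the upper flank above the map average in wild type, at 1.21, and had 1.63 in the mutant, while the desert segments stayed below 1 in both. The bin at -20 kb, at the Shh end of the domain, had the highest ratio of all bins for contact with the upper flank, with 1.62 in wild type and 2.54 in the mutant (log2 ratio 0.65).

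Within the ZRS end, contact at 50 kb or more was 0.670 in wild type and 0.826 in the mutant, a log2 ratio of 0.30, and 85.5% of its 55 bin pairs were higher. The bins at 890, 900 and 910 kb had more contact with the domain in the mutant, at log2 ratios of 0.20, 0.23 and 0.42. The same 3 bins had less contact with the upper flank, at -0.16, -0.13 and -0.16. These bins therefore had more of their contact on the Shh side and less on the Nom1 side in the mutant than in wild type.

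**Figure D4:**
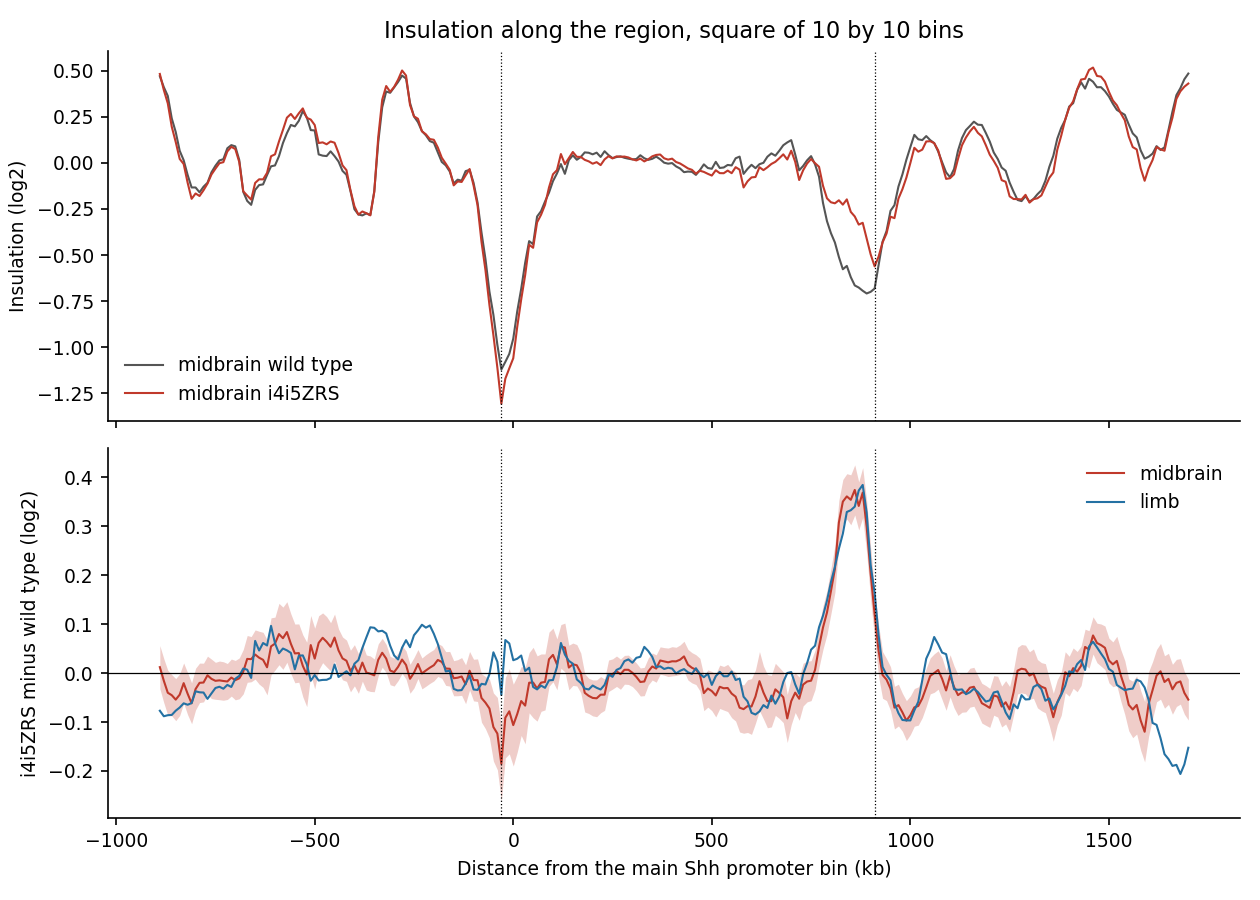
Insulation along the map in both midbrain maps above, and the difference i4i5ZRS minus wild type for midbrain and limb below, both on a log2 scale with kb from the Shh promoter on the x axis and dashed lines at the domain borders. The difference is above 0.2 from 810 to 900 kb in both tissues, and at -30 kb it is below 0 in midbrain.

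The lower border, which lies next to Shh and away from the ZRS, was deeper in the mutant. At -30 kb insulation was -1.12 in wild type midbrain and -1.31 in the mutant, a difference of -0.19 (-0.26 to -0.11) and the largest fall in the map. The bins on either side of it were lower too, with -0.12 at -40 kb and -0.11 at -50 and 0 kb. The next falls at least 50 kb from a larger one were -0.12 at 1590 kb, -0.097 at 990 kb, -0.093 at 690 kb and -0.090 at 1360 kb. Contact of the domain with the lower flank was 0.898 in wild type and 0.769 in the mutant, a change of -14.3%, at a log2 ratio of -0.22 (-0.24 to -0.21). All 50 lower flank bins were lower, 43 with an interval below 0, and the SD of their log2 ratios was 0.10. The lowest was at -350 kb, with 0.691 in wild type and 0.514 in the mutant, a log2 ratio of -0.43.

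Within the domain the ZRS end had the lowest log2 ratio with the lower flank, and the other segments were lower too. Contact of the lower flank with the promoter end was 0.570 in wild type and 0.491 in the mutant, a log2 ratio of -0.21 (-0.27 to -0.16), and all 12 promoter end bins were lower. With the near desert it was 0.601 and 0.560 (log2 ratio -0.10), and with the far desert 0.938 and 0.856 (-0.13), with 29 of 33 bins lower in each. The size of these desert values depends on the scaling: they ranged from -0.050 to -0.19 for the near desert and from -0.087 to -0.22 for the far desert over the alternatives tried, without a change of sign. The Shh promoter alone had 0.707 with the lower flank in wild type and 0.611 in the mutant, a log2 ratio of -0.21 (-0.29 to -0.13). Because each map is scaled by its own mean, part of any lower value can be the counterpart of the higher contacts above the domain. With the expected signal taken only from pairs with neither end in the domain, the log2 ratio of domain and lower flank was -0.17, and that of domain and upper flank 0.38.

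Contacts that skip the domain, between the lower and the upper flank, had a mean of 1.28 in wild type and in the mutant by this scaling. The log2 ratio was -0.0068 (-0.030 to 0.017). It depends on the processing, with -0.11 unscaled, -0.074 with total scaling and -0.053 with flanks of 300 kb. The mean by the main scaling joined parts with opposite signs. The following stretches were chosen after their values had been seen. The 20 bins from -400 to -210 kb were all lower against the upper flank, with 1.26 in wild type and 1.07 in the mutant, a log2 ratio of -0.23 (-0.27 to -0.20). The 17 bins from -200 to -40 kb, next to Shh, had 1.49 in wild type and 1.64 in the mutant (0.14, interval 0.11 to 0.17), and 14 were higher. The 13 bins from -530 to -410 kb had 1.06 in wild type and 1.12 in the mutant, and 10 were higher. Their log2 ratio was 0.086 (0.019 to 0.15), against -0.041 (-0.11 to 0.029) in limb.

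The stretches from -400 to -210 kb and from -200 to -40 kb both differed along the upper flank. Between -400 to -210 kb and 920 to 1110 kb contact was 1.78 in wild type and 1.36 in the mutant, a log2 ratio of -0.39 (-0.43 to -0.35). Between the same lower stretch and the rest of the upper flank, from 1120 kb on, it was 0.910 and 0.878, a log2 ratio of -0.051 (-0.11 to 0.0062). The stretch next to Shh showed its difference with the bins from 1120 kb on, at 1.27 in wild type and 1.49 in the mutant (log2 ratio 0.23, interval 0.18 to 0.28), rather than with 920 to 1110 kb, where the log2 ratio was 0.041 (-0.0038 to 0.085). The lower contact of the -400 to -210 kb stretch with the upper flank thus lay mainly in the block from 920 to 1110 kb. The limits of this block are not a measured extent.

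The extreme smoothed pairs followed these patterns. They were taken from the 32723 pairs with 100 or more contacts in the square in both maps, each at least 50 kb from the others. All 10 highest of these pairs had their upper end above the border, with log2 ratios from 0.78 to 0.99. The second highest joined the Shh promoter, at -10 kb, to 1240 kb (chr5:30030001-30040000), with 1.14 in wild type and 2.15 in the mutant from 282 and 495 contacts in the square. The same bin with 1140 kb had 1.45 and 2.64. The highest of these pairs joined 130 to 1530 kb, with 0.605 and 1.20. The bin at 130 kb also had the lowest recovered contacts relative to its neighbours, a log2 ratio between maps 0.39 below the mean of the 6 bins around it, and the part of this in the pair was not tested.

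Of the 10 lowest pairs by the same rule, 5 joined the lower flank to the ZRS end. That of -170 and 870 kb had 2.17 in wild type and 1.19 in the mutant (log2 ratio -0.87), and that of -50 and 860 kb, just beyond Shh, 4.88 and 2.99 (-0.71). Another joined the main promoter bin to 850 kb, with 6.28 and 3.43. Of the remaining 4, the pair of -280 and 1540 kb had 0.920 and 0.502 on 170 and 100 contacts. The pair of -500 and 20 kb had 1.06 and 0.624, and its bin at -500 kb had the highest recovered contacts relative to its neighbours, by a log2 ratio of 0.66, whose part was not tested.

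The limb maps of the same allele, made from E10.5 limb buds labelled deltaCTCF i4i5ZRS and G4 (2 samples) and wild type and C57BL/6 (3 samples, 2 of which share a library number), allow the midbrain values to be set beside a tissue in which the ZRS is active. They share no sample with the midbrain maps. The limb maps held 1983686 contacts in the mutant and 2862106 in wild type. Over the 36 segment pairs the sign of the log2 ratio was the same in both tissues in 30, and 12 passed 0.2 in size in each. In the ZRSreg and Lmbr1 promoter comparisons none passed 0.2. Lower flank and ZRS end had a log2 ratio of -0.50 in limb against -0.45 in midbrain, and promoter end and upper flank 0.40 against 0.43. The insulation difference was above 0.2 over the same 10 bins from 810 to 900 kb, with 0.34 at 860 kb in limb. Over smoothed pairs 839 were higher in limb (2.36%) and 701 lower (1.97%). The 249 pairs higher in both were 22.8% of those in midbrain and 29.7% of those in limb, the 347 lower in both were 55.6% and 49.5%, and 17 pairs were past the fold in opposite directions.

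The tissues differed around the lower border, next to Shh. At the lower border the limb difference in insulation was -0.045 (-0.12 to 0.026), where midbrain had -0.19. Contact of the Shh promoter with the lower flank was 0.813 in wild type limb and 0.798 in mutant limb, a log2 ratio of -0.028 (-0.095 to 0.040). The difference of midbrain minus limb was -0.18 (-0.29 to -0.076, a normal approximation of counting error). For lower flank and promoter end the limb log2 ratio was -0.070, and midbrain minus limb was -0.14. For lower flank and near desert the log2 ratio was 0.0095 in limb against -0.10 in midbrain. The other alleles against wild type limb also differed from each other in these blocks. Lower flank and promoter end had 0.094 in the ZRSreg map and -0.016 in the Lmbr1 promoter map. Lower flank and near desert had 0.063 and -0.037 in the same order. Farther out, promoter contact with the upper outer segment had a log2 ratio of 0.56 in limb and 0.22 in midbrain, a difference of -0.33 (-0.58 to -0.087). The lower contact of the promoter end with the ZRS end was smaller in midbrain, with a log2 ratio of -0.32 against -0.44 in limb, a difference of 0.13 (0.054 to 0.20). For the Shh promoter itself with the ZRS end it was -0.39 against -0.53, a difference of 0.14 (0.023 to 0.25). For the Shh promoter with the narrower ZRS window the tissues were close, at -0.87 in midbrain and -0.89 in limb. That difference was 0.019 (-0.20 to 0.24). Over all segment pairs the interval of the difference left out 0 in 13 of 36, with midbrain minus limb below 0 in 7 and above 0 in 6. Intervals that left out 0 were also common for the other alleles against wild type limb. The ZRSreg log2 ratio was above 0 by its interval in 8 of 36 pairs and below in 8. Those of the Lmbr1 promoter map were above in 10 and below in 9. These ratios ranged from -0.12 to 0.11 and from -0.11 to 0.12. The strain labels differ between genotypes in limb as they do in midbrain. Whether the spread between animals is larger than the differences between the tissues was not tested.

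**Figure D5:**
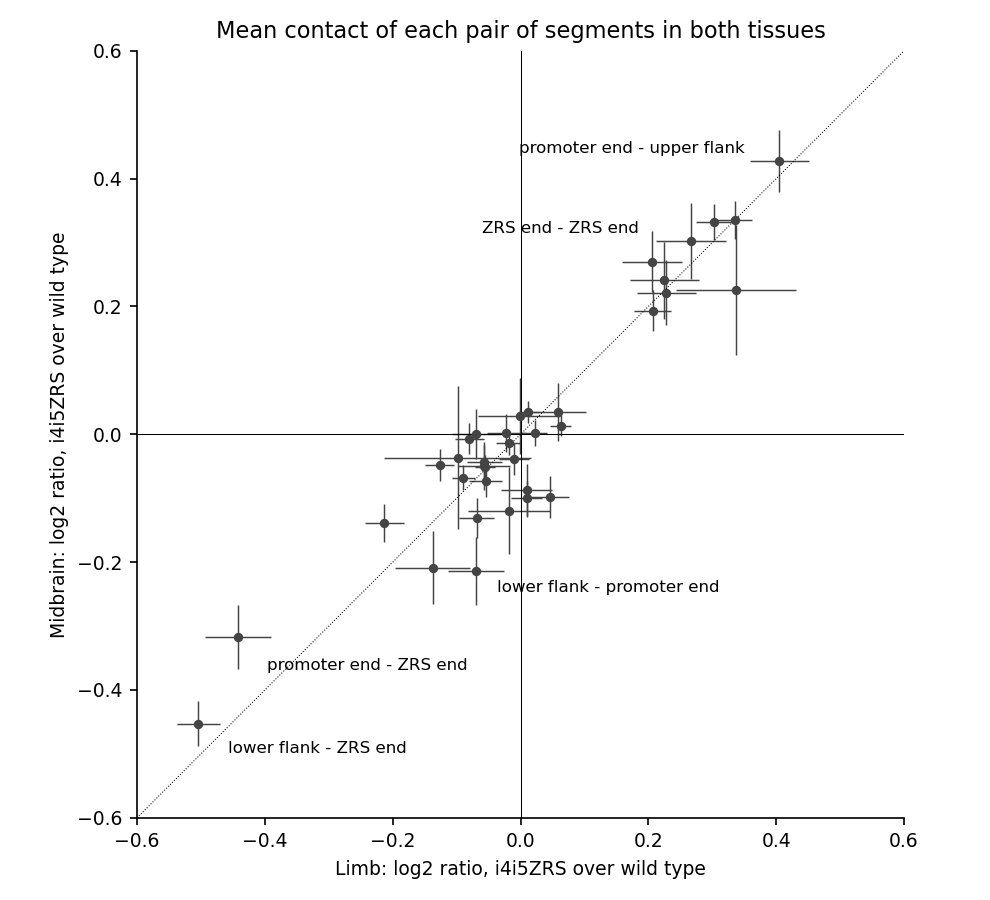
Log2 ratio of mean contact, i4i5ZRS over wild type, for the 36 pairs of segments, limb on the x axis and midbrain on the y axis, with 95% counting intervals and a dotted line of equal values. Points lie along that line from -0.45 for lower flank and ZRS end to 0.43 for promoter end and upper flank, and lower flank with promoter end lies below it.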

How the data were processed

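Each deposited map lists a signal for pairs of 10 kb bins in mm9, balanced (KR) by the authors so that all bins of a map have the same total, with the samples of a group merged, per the names of the deposited files. Bin totals were 13413 in mutant and 13900 in wild type midbrain. Per the labels' protocols, tissue was fixed with 2% formaldehyde for 10 min, cut with DpnII, ligated and enriched with SureSelect probes. Tools named in the submitters' processing notes are Juicer, SAMtools, Bowtie2 2.3.4.1 and cutadapt 1.15, with no settings. Whole contacts were recovered by dividing the signal by a factor per bin, and 100% of listed values came out whole within 0.01. They set the depth behind each value and its interval, and PCR copies among them are not told apart.

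Observed over expected was the signal over the mean at its separation, unlisted pairs as 0, with separations of 50 kb or more for blocks. Ratios are the log2 of the ratio of block means, with exact binomial (Clopper-Pearson) intervals on effective contacts. Profiles needed 50 contacts in both maps, and extreme pairs 100 contacts in the square and 50 kb between pairs. Scripts used Python 3.11.15, numpy 2.4.6 and scipy 1.17.1 and were tested on simulated data. Named bins are the extremes by these rules. The regions, rules and lists were chosen with earlier results of these data known. No sequence is printed, and virtual 4C tracks and maps of other groups were not used here except 4 limb maps. Alternatives were other expected signals, scalings, windows, flanks, borders, squares and smoothing, unbalanced contacts, and subtraction of the shift seen in the ZRSreg and Lmbr1 promoter limb maps.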

Additional observations from a re-analysis of the deposited data

Results flagged for a closer look

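Contact of the lower outer segment (-990 to -540 kb) with the near desert (100 to 420 kb) had a log2 ratio of mutant to wild type of -0.097 in midbrain and 0.046 in limb, with counting intervals on opposite sides of 0. Against the same wild type limb map, the ZRSreg map had a larger ratio here, 0.11 (0.087 to 0.14). The Lmbr1 promoter map had 0.0027 (-0.024 to 0.030). Midbrain minus limb was -0.14 (-0.19 to -0.098, counting error only), and with 1 merged map per group this difference could not be set against a spread between replicates.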

How the results depend on the processing

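Of 90 alternative values for the main block contacts, insulation and counts, 46 stayed within the counting interval or within 1.5 times of a count, and 44 moved. The cause was not tested. Promoter and ZRS window (-0.87) became -1.03 with a median expected signal, -0.52 with a window of 800 to 900 kb and -0.63 with the main promoter bin alone. Domain and upper flank (0.34) became 0.29 with the median, 0.22 unscaled, 0.26 with total scaling, 0.36 with unbalanced contacts, 0.36 less the shift of the other G4 limb maps, 0.37 with flanks of 300 kb, and 0.38 with the expected signal from outside the domain, an alternative chosen after seeing the data. Domain and lower flank (-0.22) became -0.27, -0.29 and -0.25 with the median, unscaled and with total scaling, -0.17 with the outside expected signal and -0.26 with 300 kb flanks. Lower and upper flank (-0.0068) became -0.11 unscaled, -0.074 with total scaling, 0.030 less the G4 shift, -0.037 with the border at 890 kb and -0.053 with 300 kb flanks. Contact within the domain (-0.065) became -0.11 with the median and unscaled, -0.081 unbalanced, -0.048 with the outside expected signal, -0.088 less the G4 shift and -0.077 with the border at 890 kb. Contact within the lower flank (0.014) became -0.061 unscaled, -0.025 with total scaling, -0.042 less the G4 shift and -0.013 with 300 kb flanks. Contact within the upper flank (-0.051) became -0.12 unscaled, -0.084 with total scaling, -0.0064 unbalanced and -0.017 less the G4 shift. ZRS window and lower flank (-0.53) became -0.63 unscaled, -0.59 with total scaling and -0.63 with 300 kb flanks. Promoter and upper flank (0.50) became 0.41 unscaled. The insulation difference at 910 kb (0.12) became 0.029 with squares of 5 by 5 bins and 0.21 with 20 by 20. The counts of 1090 higher and 624 lower pairs became 2460 and 1529 with squares of 3 by 3 bins. The higher count became 589 with 7 by 7 bins and 657 with total scaling. Of 198 alternative values for segment pairs, 7 changed the sign of a main value whose counting interval left out 0. Sign changes of main values whose interval held 0 are not in this count. Promoter end with near desert, for example, went from 0.0020 to -0.073 unscaled. The 7 counted changes were in 3 segment pairs. Lower outer with lower flank (0.035) became -0.0034 with the median, -0.044 unscaled, -0.0079 with total scaling and -0.0020 unbalanced. Upper flank with upper outer (-0.068) became 0.0028 unbalanced, and contact within upper outer (-0.048) became 0.028 unbalanced and 0.058 less the G4 shift. No paired analysis was possible because each group was deposited as 1 merged map, and for the same reason no replicate could be left out. Depth limits single bin pairs, with a median of 14 contacts in the mutant, so single pairs are not read here.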

Other observations

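The fall of contact with distance was close between the midbrain maps. Separations of 0 to 10 kb held 37.5% of the signal of the mutant map and 35.6% of that of wild type, and the 7 wider ranges had log2 ratios of shares from -0.062 to -0.021. In limb the same values were 39.1% and 32.2%, with log2 ratios from -0.18 to -0.10.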
